A study of Homo sapiens with 4 samples.

Results

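The 8 genes described here make or move cholesterol, or set how much of it a cell makes: the transcription factor genes SREBF2 and SREBF1, their brake INSIG1, the synthesis enzymes HMGCS1, MVD, IDI1 and SQLE, and the sterol carrier STARD4. They were taken by name, and every probe set annotated to one of these symbols alone was kept, which gave 20 of the 54675 probe sets and 8 of the 19775 genes on the array. None of the 8 encodes a lipoprotein receptor, so uptake is covered only through other genes of the pathway. The cells were U937, an established human lymphoma line with features of immature monocytes, measured on Affymetrix U133 Plus 2.0 arrays, which read mostly the 3' part of a transcript. There were 4 groups with 1 array each. The control cells were untreated. The second group received Sonazoid at 0.05%, an ultrasound contrast agent made of gas microbubbles in a phospholipid shell. The third was exposed for 1 min to ultrasound of 0.3 W/cm2, and the fourth, called the combination, received both agents. The treated cells were incubated for 3 h afterwards, and the incubation time of the control cells is not stated in the sources used here. All groups were the same cell line.

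Cells make cholesterol from acetyl-CoA through mevalonate, isoprenoid units, squalene and a final series of ring-modifying steps. When the membrane of the endoplasmic reticulum is poor in sterol, the escort protein SCAP carries the precursors of SREBP1 and SREBP2 to the Golgi, where proteases release a fragment that enters the nucleus and switches on the synthesis genes. INSIG1 holds SCAP back when sterol is plentiful, and is itself a target of SREBP, so that its transcript is widely used as a sign of SREBP activity. In monocytes and macrophages this circuit balances lipid taken up from lipoproteins and debris.

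With 1 array per group the spread between replicates is unknown, so the differences below are descriptions of these arrays and carry no test. Signals are probe set intensities, scaled so that the 4 arrays share a trimmed mean, and values under 23.8, the median of all signals and called the floor, were set to it before log2 was taken. A fold is the ratio of 2 arrays, and a gene or probe set was counted at 2-fold or more. Because few members came near that size, counts at 1.2-fold, a limit chosen after the values were seen, are given as well. Where a gene has several probe sets, the brightest stands for it. Of monocytic markers 9 of 11 on the table lay above the floor on all arrays, with ELANE, LYZ and LAPTM5 the brightest; MPO passed the floor on 1 array and FCGR1A on 0. Of markers of other cells, 0 of 5 for T cells, 1 of 3 for B cells (CD79A, 72.5 to 107), 1 of 2 for erythroid cells (HBB, 34.9 to 63.4) and 0 of 3 for liver lay above the floor on all arrays. On at least 1 array 4 of the T cell, 2 of the B cell, 2 of the erythroid and 0 of the liver markers did; CD3D, CD79B, ALB, APOA1 and CYP7A1 lay under it on every array. Summed over each list, monocytic markers ranged from 24565 to 29362 between arrays, T cell markers from 48.1 to 125, B cell markers from 99.0 to 129, erythroid markers from 49.7 to 85.9 and liver markers from 19.9 to 32.3. The part of cell composition in the differences below was not tested, and in bulk RNA fewer cells of a type and less RNA per cell cannot be told apart.

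SREBP2 binds the sterol regulatory element in promoters, usually beside sites for NF-Y and Sp1. The promoters of 3 members are shown because the results below turn on them: SREBF2, whose probe sets differed most among themselves, SREBF1, the gene farthest below control in the combination, and MVD, the gene farthest above it. Each runs from 250 bases before to 50 bases after the RefSeq start of transcription in GRCh38.p14, 5′ to 3′ on the strand of the gene. They lie at chr22:41832855-41833154 (plus strand), chr17:17836937-17837236 (minus strand) and chr16:88663042-88663341 (minus strand). Capitals mark matches on either strand to the sterol regulatory element, to CCAAT, bound by NF-Y, and to GGGCGG, bound by Sp1, which read ATTGG and CCGCCC on the other strand. The sterol regulatory element is the leftmost run of capitals in the SREBF2 line.
SREBF2: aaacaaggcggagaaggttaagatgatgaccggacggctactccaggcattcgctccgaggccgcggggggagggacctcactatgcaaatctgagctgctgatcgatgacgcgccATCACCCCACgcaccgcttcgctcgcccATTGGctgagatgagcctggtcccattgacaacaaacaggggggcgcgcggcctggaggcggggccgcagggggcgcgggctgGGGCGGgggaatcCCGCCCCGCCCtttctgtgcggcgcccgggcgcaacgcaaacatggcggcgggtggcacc
SREBF1: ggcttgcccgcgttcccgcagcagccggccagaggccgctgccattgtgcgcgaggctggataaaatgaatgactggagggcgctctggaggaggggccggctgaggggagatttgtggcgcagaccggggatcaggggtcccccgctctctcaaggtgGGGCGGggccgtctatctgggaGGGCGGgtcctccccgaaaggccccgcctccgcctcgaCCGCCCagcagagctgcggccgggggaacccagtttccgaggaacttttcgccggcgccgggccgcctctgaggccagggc
MVD: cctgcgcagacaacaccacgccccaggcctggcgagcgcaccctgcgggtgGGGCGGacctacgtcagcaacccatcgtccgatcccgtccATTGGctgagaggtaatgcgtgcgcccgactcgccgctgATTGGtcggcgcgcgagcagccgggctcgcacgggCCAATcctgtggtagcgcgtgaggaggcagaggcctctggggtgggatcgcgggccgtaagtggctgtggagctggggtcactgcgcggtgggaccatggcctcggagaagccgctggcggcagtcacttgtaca

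Windows of 7 of the 8 members were searched, 10 in all, since HMGCS1 has 2 and IDI1 has 3. No window of SQLE was searched, so the motif counts leave that gene out. Of the searched windows only that of SREBF2 held the exact sterol regulatory element, from position -134 to -125 relative to the start. A reversed CCAAT lay from -106 to -102 in that window. The exact element was in 0.0456% of the 35116 promoter windows of the same length. The looser form TCACNCCAC, which overlaps it and is held by 1.13% of all windows, added no further match in the windows searched. CCAAT was present in 7 of the 10 windows, of 6 of the 7 genes searched, all but SREBF1, against 34.6% of all windows. MVD held 3 copies, as did 1 of the windows of IDI1. GGGCGG was present in all 10 windows and 45.0% of all windows, and some copies overlap, as in SREBF2. A match is a run of letters and not a shown binding site, and the absence of one says only that the letters are not in this window.

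**Figure D1:**
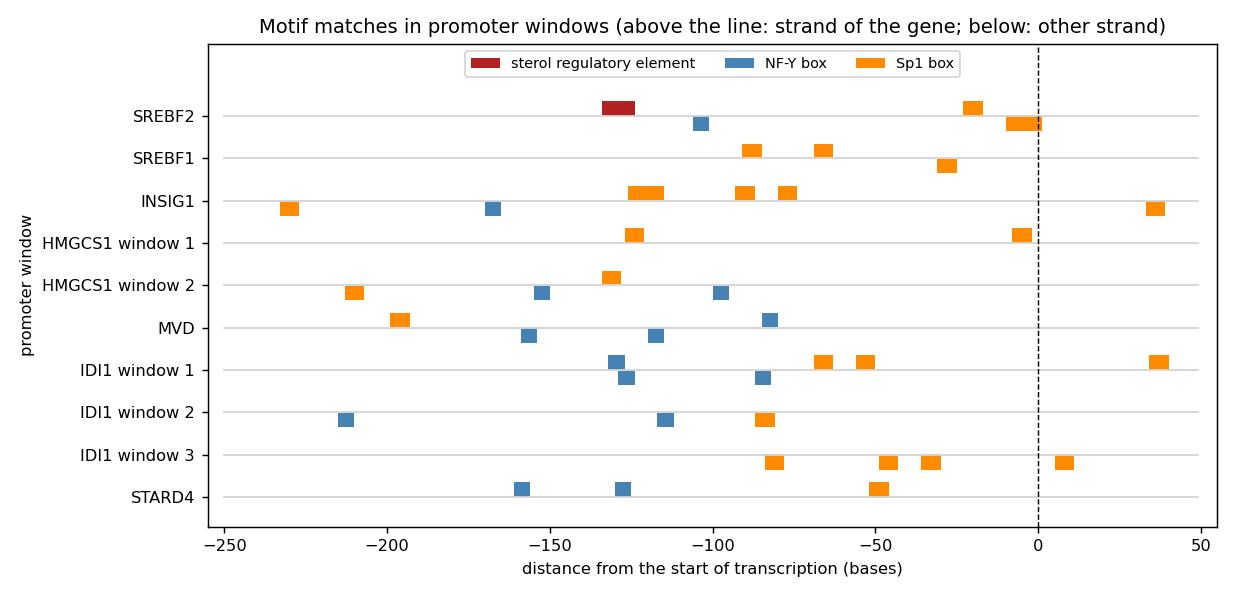
Positions of motif matches (x axis, bases from the start of transcription) in the 10 promoter windows of 7 member genes (y axis), with bars above each line for the strand of the gene and below it for the other strand. The sterol regulatory element appears once, in SREBF2, while the CCAAT and GGGCGG boxes recur across the genes.

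The ratio of the highest to the lowest array ran from 1.17 to 1.79 over the probe sets that stand for the genes, and 0 of the 8 genes reached 2-fold in any of the 5 comparisons between arrays, where 5.69% of the 13965 genes above the floor on at least 1 array did. Of the 20 probe sets 19 lay above the floor on all 4 arrays and 1, of SREBF1, on none. The 6 probe sets with signals over 1000 on every array, of INSIG1, IDI1 and SQLE, differed by 1.13-fold to 1.28-fold between their highest and lowest array. The 8 probe sets between 100 and that level differed by 1.16-fold to 1.79-fold, and the 5 dimmer ones by 1.30-fold to 3.19-fold. The array with Sonazoid only held the highest signal for 8 of the 19 probe sets and the lowest for 0, and these counts were 8 and 0 with the values as deposited and 9 and 0 after quantile normalisation. By gene, on scaled signals, it was the highest for 4 of the 8 members and the lowest for 0. Over the 10628 genes above the floor on all arrays, scaled alike, it was the highest for 23.7% and the lowest for 24.3%.

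**Figure D2:**
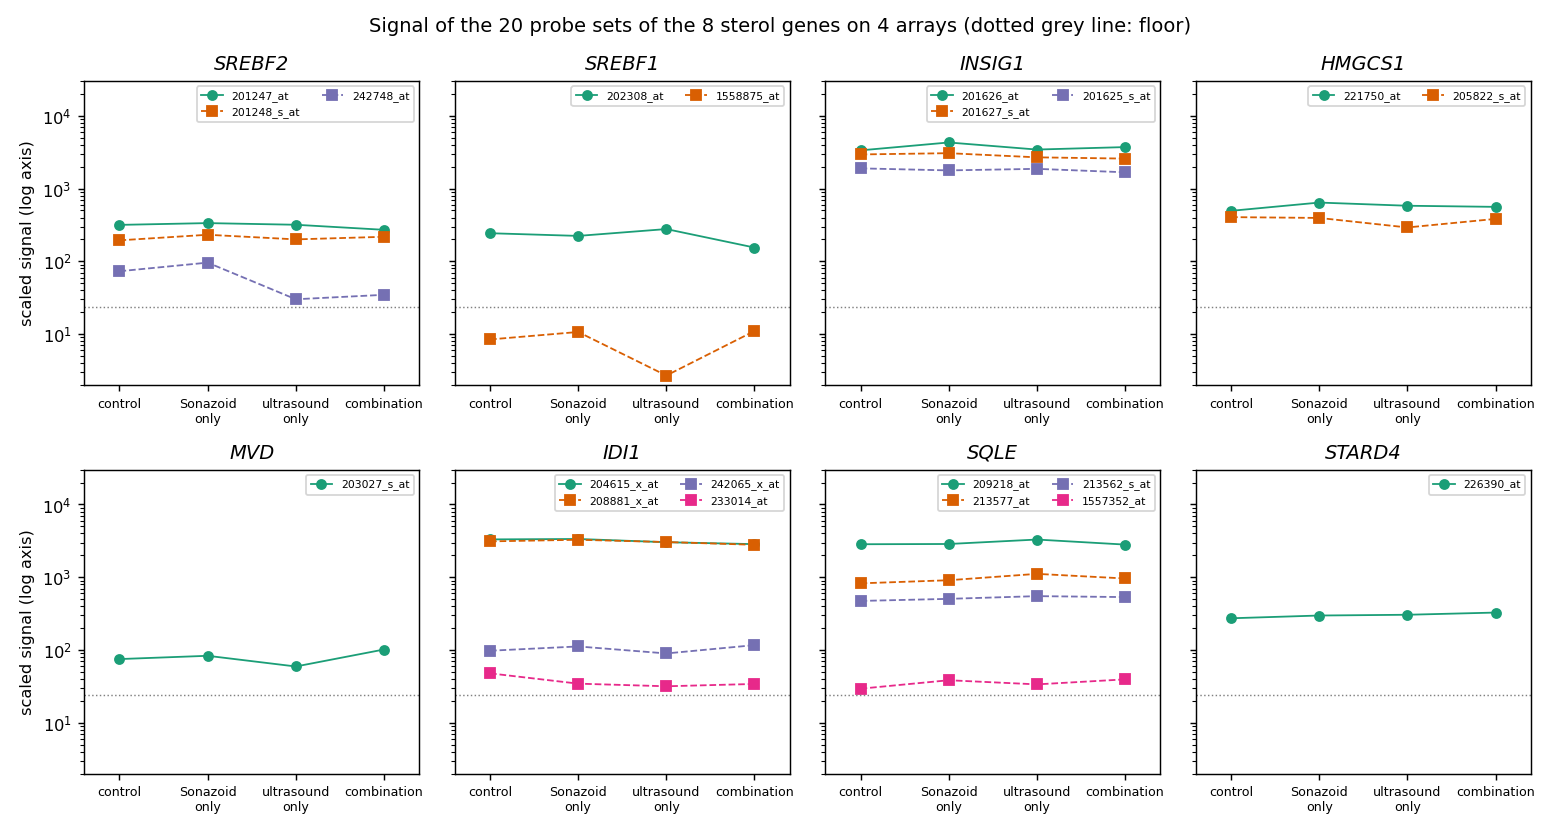
Scaled signal (log axis) of each of the 20 probe sets of the 8 genes on the 4 arrays (x axis), 1 point per array; solid lines mark the probe set that stands for the gene and the dotted grey line the floor. Most lines run flat, while probe set 242748_at of SREBF2 lies lower on both arrays with ultrasound, at 30.1 and 34.7.

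SREBF2 encodes SREBP2, the main activator of cholesterol synthesis genes, and is itself one of its targets through a sterol regulatory element in its promoter. Its brightest probe set, 201247_at, read 317 in untreated cells, 335 after Sonazoid, 318 after ultrasound and 271 after both. The second, 201248_s_at, read 194, 232, 200 and 218 in the same order. On these probe sets the 3 single arrays and the combination differed by at most 1.24-fold, and the second was highest with Sonazoid only as was the first. The third, 242748_at, read 73.1 in control and 96.1 with Sonazoid only against 30.1 with ultrasound only and 34.7 in the combination. The arrays with ultrasound thus lay below both arrays without it, 2.43-fold lower for ultrasound only against control and 2.77-fold lower for the combination against Sonazoid only, which share no array. The combination lay 2.11-fold below control as well, a log2 difference of -1.08 that was -0.90 with the values as deposited. Its signals are dim, and the other probe sets of the gene differed from control with ultrasound only by log2 0.01 and 0.04. Of all probe sets with 1 symbol, 0.984% were lower by 2-fold or more for the combination against control, 1.03% for ultrasound only against control and 0.815% for the combination against Sonazoid only. In both of the last comparisons 10 of 22628 probe sets were, or 0.0442%. That share was counted only for the pattern seen in 242748_at, and over bright and dim probe sets together. Which stretch of the transcript this probe set reads is not stated in the sources used here.

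SREBF1 encodes SREBP1, which acts more on fatty acid genes. Its measured probe set, 202308_at, read 244 in untreated cells, 224 after Sonazoid, 278 after ultrasound and 155 after both. The combination was the lowest of the 4, 1.57-fold under control, 1.45-fold under Sonazoid only and 1.79-fold under ultrasound only, the largest difference among the 8 genes on scaled signals. On deposited values MVD differed more in that comparison, by log2 0.99 against -0.63 for SREBF1. With ultrasound only the gene stood 1.14-fold above control. The departure from additivity, the log2 effect of ultrasound in cells with Sonazoid less its effect in cells without, was -0.72 on scaled signals. With the values as deposited the log2 difference of the combination from control was -0.48 in place of -0.65. The other probe set, 1558875_at, stayed between 2.70 and 11.0, under the floor on every array.

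INSIG1 encodes the protein that keeps SCAP and SREBP in the endoplasmic reticulum. Its brightest probe set, 201626_at, read 3348 in untreated cells, 4296 after Sonazoid, 3434 after ultrasound and 3713 after both, so that Sonazoid only was highest, 1.28-fold over control. The second, 201627_s_at, read 2943, 3061, 2685 and 2580, and the third, 201625_s_at, 1894, 1776, 1866 and 1673. The 3 probe sets did not share the order of the arrays. For Sonazoid only against control their log2 differences were 0.36, 0.06 and -0.09, and for the combination against control 0.15, -0.19 and -0.18. Their sign agreed in the combination against Sonazoid only, where all lay below 0, from -0.25 to -0.09.

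Of the enzymes, HMGCS1 joins acetoacetyl-CoA with acetyl-CoA into HMG-CoA at the head of the pathway. Its brightest probe set, 221750_at, read 494 in untreated cells, 642 after Sonazoid, 581 after ultrasound and 560 after both, and control was the lowest. The other, 205822_s_at, read 405, 395, 292 and 383, and ultrasound only was the lowest. For ultrasound only against control these gave log2 differences of 0.23 and -0.47, a gap of 0.70. Over the 5250 genes with at least 2 probe sets above the floor on all arrays, the gap between the brightest pair in that comparison had a median of 0.22 and a 90th percentile of 0.67. For HMGCS1 the direction after ultrasound only therefore depends on the probe set.

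MVD makes isopentenyl diphosphate, the first isoprenoid unit, from mevalonate diphosphate. Its only probe set read 75.2 in untreated cells, 83.4 after Sonazoid, 59.5 after ultrasound and 102 after both. That probe set is not among the gene-specific ones, so MVD drops out where only those stand for a gene. The combination was the highest of the 4, 1.35-fold over control, 1.22-fold over Sonazoid only and 1.71-fold over ultrasound only, which was the lowest. The departure from additivity was 0.63 on scaled signals. These are dim signals, and on the stricter floor of 100 the combination differed from ultrasound only by at least log2 0.03, since 3 arrays lie under that floor.

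IDI1 converts isopentenyl diphosphate into dimethylallyl diphosphate. Its bright probe sets tracked each other: 204615_x_at read 3312 in untreated cells, 3356 after Sonazoid, 3030 after ultrasound and 2851 after both, and 208881_x_at read 3111, 3274, 3048 and 2792. Both were lowest in the combination, 1.16-fold and 1.11-fold under control, and the second of these differences turned to log2 0.02 with the values as deposited, where ultrasound only was the lowest array for both. Both carry the suffix that marks probes able to bind related sequences, so signal from a close relative of the gene cannot be told apart from its own. The dim probe sets gave other orders. Probe set 242065_x_at read 97.9, 112, 89.8 and 117 in the order of groups used above, and 233014_at read 47.9, 34.6, 31.8 and 34.2, where control was highest.

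SQLE oxidises squalene, a step of the pathway that requires oxygen. Its brightest probe set, 209218_at, read 2842 in untreated cells, 2864 after Sonazoid, 3297 after ultrasound and 2812 after both. The next, 213577_at, read 825, 910, 1114 and 962, and 213562_s_at read 473, 505, 550 and 534. On all 3 ultrasound only was the highest array, by 1.16-fold, 1.35-fold and 1.16-fold over control. On deposited values it was the highest for 209218_at, whereas the combination was for 213577_at (1043 against 1039) and for 213562_s_at (579 against 514). The faintest, 1557352_at, read 29.5, 38.5, 33.8 and 39.6, just above the floor. All 4 probe sets lay above control after ultrasound only, from log2 0.20 to 0.43, and the 4 of IDI1 below it, from log2 -0.59 to -0.03, and these signs were the same with the values as deposited and after quantile normalisation. For the combination against Sonazoid only, the other pair for ultrasound, SQLE ran from log2 -0.03 to 0.08 and IDI1 from -0.24 to 0.06. There 3 of the 4 SQLE probe sets stood above 0, and 3 of the 4 of IDI1 below it.

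STARD4 carries cholesterol between membranes through the cytosol. It read 273 in untreated cells, 298 after Sonazoid, 305 after ultrasound and 327 after both. Control was the lowest and the combination the highest array, log2 0.26 apart. Each agent alone stood 1.09-fold and 1.12-fold over control, and the departure from additivity was -0.03 on scaled signals. With the values as deposited its sign turned, since the effect of ultrasound was log2 0.22 with Sonazoid and 0.12 without. The place of STARD4 above control in all 3 treated arrays rests on 1 probe set.

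In the combination against control 0 of 8 genes were 2-fold higher and 0 were 2-fold lower, where 1.39% and 0.872% of all measured genes were, and the members' median log2 difference was 0.07 against -0.0030 for all genes. At 1.2-fold, MVD was higher and SREBF1 lower, 1 of 8 each, where 18.4% and 16.9% of all genes were counted. After ultrasound only 0 genes were 2-fold higher (1.65% of all genes) or lower (0.721%), and at 1.2-fold 0 were higher (20.8%) and 1, MVD, lower (16.2%). With Sonazoid only 0 were 2-fold higher (0.652%) or lower (0.715%), and at 1.2-fold 2, HMGCS1 and INSIG1, were higher (13.9%) and 0 lower (13.9%). In the combination against ultrasound only 0 genes were 2-fold higher (0.7%) or lower (1.16%), with MVD higher (15.4%) and SREBF1 lower (20%) at 1.2-fold. In the combination against Sonazoid only 0 were 2-fold higher (1.46%) or lower (0.711%), and at 1.2-fold MVD was higher (17.6%) and SREBF1 and SREBF2 were lower (16.6%). The comparisons share arrays with one another. With the values as deposited, 5 genes passed 1.2-fold in the combination against control in place of 2, and 4 in the combination against ultrasound only in place of 2. With the mean of probe sets 0 genes passed 1.2-fold with Sonazoid only in place of 2, and 3 after ultrasound only in place of 1. The calls of HMGCS1 and INSIG1 with Sonazoid only rest on the brightest probe set, since the others stood at log2 -0.04 for HMGCS1 and at 0.06 and -0.09 for INSIG1.

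The median of the 8 genes was 0.10 for ultrasound only, 0.10 for Sonazoid only, -0.07 for the combination against ultrasound only and -0.20 for the combination against Sonazoid only, where the medians of all genes were 0.02, -0.00034, -0.01 and -0.0016. With ultrasound only the median turned to -0.079 when the mean of all probe sets stood for a gene, and that of the combination against ultrasound only turned to 0.049 in the same way and to 0.15 with the values as deposited. With the values as deposited the median of all genes itself moved, to 0.16 in the combination against control and 0.19 in the combination against ultrasound only. The median of the combination against Sonazoid only stayed below 0 under all 6 other settings, from -0.22 to -0.11.

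**Figure D3:**
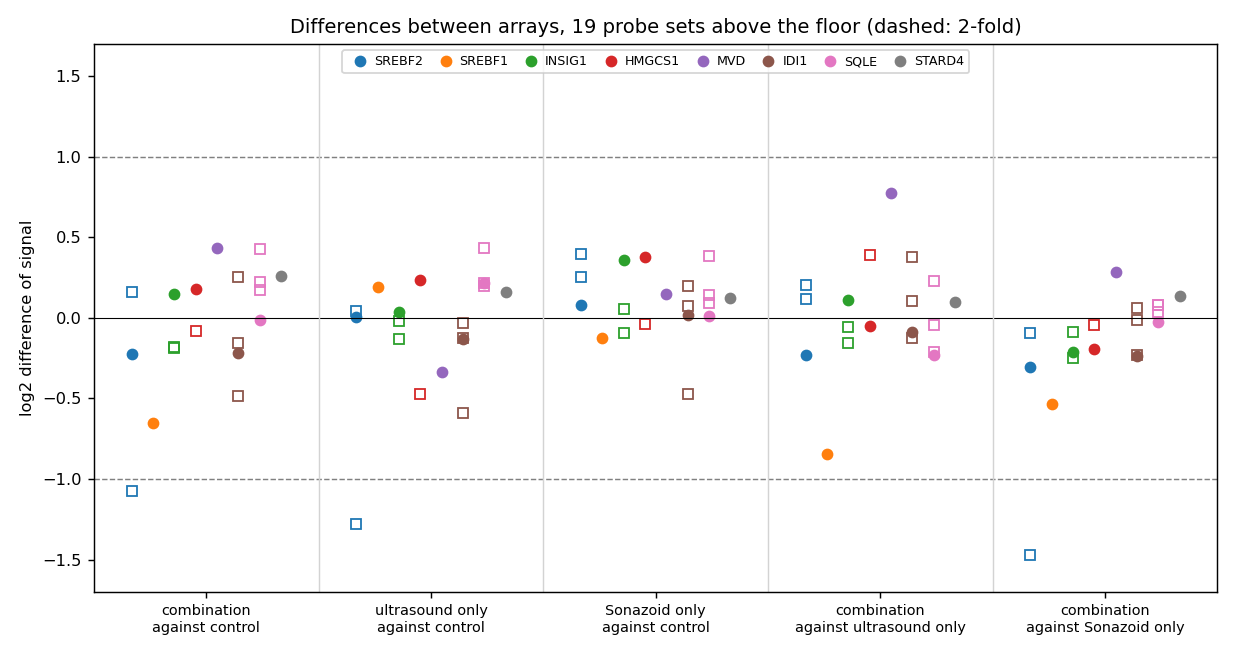
Log2 difference of signal (y axis) of the 19 probe sets above the floor in each of the 5 comparisons (x axis), coloured by gene; filled circles mark the probe set that stands for the gene, open squares the others, dashed lines 2-fold. Apart from 1 probe set of SREBF2, between -1.08 and -1.47 in 3 comparisons, all points lie inside the dashed lines.

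The design allows each agent to be read on 2 pairs of arrays without a shared array. For Sonazoid these are Sonazoid only against control, and the combination against ultrasound only. INSIG1, MVD and STARD4 were higher with Sonazoid in both pairs, SREBF1 was lower in both, and the other 4 genes differed in sign. For INSIG1 this holds on its brightest probe set, and the mean of its probe sets gave log2 -0.034 in the combination against ultrasound only. These are 3 and 1 of 8 genes, where 27% and 28.8% of all genes were higher and lower in both. With the values as deposited, 5 genes were higher in both, where 54.6% of all genes were. For ultrasound, STARD4 alone was higher in both pairs and IDI1 alone lower in both, where 30.7% and 28.7% of all genes were. On deposited values 2 were higher and 3 lower in both pairs, and after quantile normalisation 1 and 2. By probe set, 7 of 19 were higher and 2 lower with Sonazoid in both pairs (27.7% and 27.3% of all probe sets with 1 symbol), and 4 were higher and 7 lower with ultrasound (28.6% and 29.8%). The remaining 10 and 8 probe sets differed in sign between the pairs. In 4 of the 19 both differences were at least 1.1-fold and of opposite sign for either agent, where 20.7% of all such probe sets were.

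**Figure D4:**
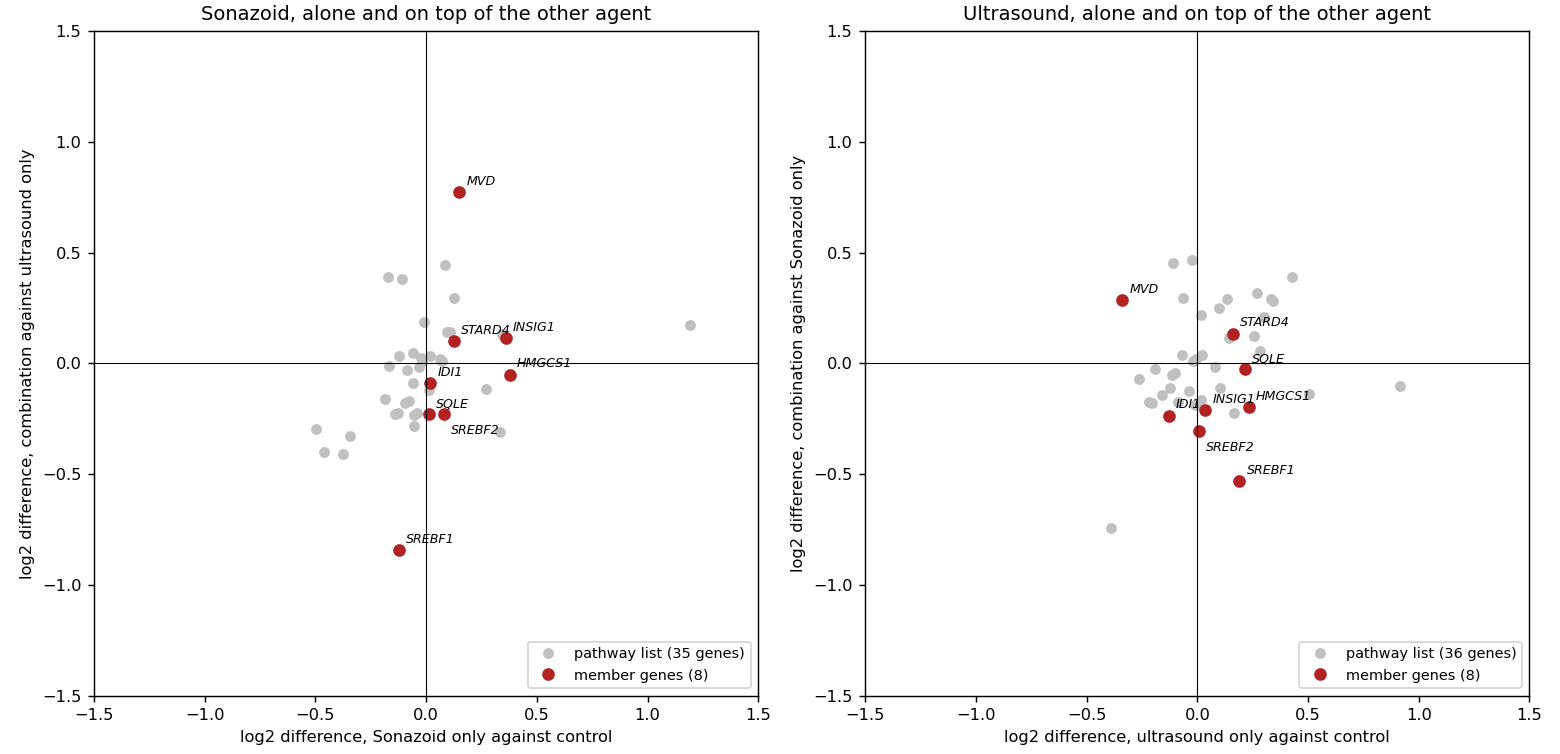
Log2 difference of each gene for an agent given alone against control (x axes) and given with the other agent (y axes), for Sonazoid on the left and ultrasound on the right; red points are the 8 members and grey points the pathway genes measured in both pairs. SREBF1 and MVD lie farthest from 0 with Sonazoid in ultrasound-treated cells, at -0.84 and 0.78, and much nearer 0 with Sonazoid alone, at -0.12 and 0.15.

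The rest of the pathway was followed through a list of regulators, enzymes, carriers and SREBP1 targets, of which 39 genes were on the table and 38 above the floor on at least 1 array. In the combination against control 1 of 37 measured genes was at least 2-fold higher (1.39% of all genes) and 0 lower (0.872%). At 1.2-fold 7 were higher (18.4%) and 5 lower (16.9%), and the median was 0.02 against -0.0030 for all genes. After ultrasound only 0 of 36 were 2-fold higher (1.65%) or lower (0.721%), and 8 were 1.2-fold higher (20.8%) and 2 lower (16.2%). With Sonazoid only 1 of 37 was 2-fold higher (0.652%) and 0 lower (0.715%), and 6 were 1.2-fold higher (13.9%) and 4 lower (13.9%). The 1 gene in both cases was HSD17B7, a ketoreductase acting on sterol intermediates, which read 45.2 in untreated cells, 103 after Sonazoid, 85.1 after ultrasound and 96.0 after both. Control was the lowest array by 1.88-fold or more, on a dim probe set that may bind related sequences and was the only 1 of the gene. Against ultrasound only, the combination had 0 of 36 genes 2-fold higher (0.7% of all genes) or lower (1.16%). At 1.2-fold 4 were higher (15.4%) and 6 lower (20%). Against Sonazoid only it had 0 of 38 genes 2-fold higher (1.46%) or lower (0.711%), and 8 higher (17.6%) and 2 lower (16.6%) at 1.2-fold.

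Among the regulators, SCAP, the escort of SREBP, read 758 in untreated cells, 688 after Sonazoid, 714 after ultrasound and 609 after both, the lowest. INSIG2, the second protein that holds SCAP back, read 220, 234, 265 and 292 and was 1.33-fold higher in the combination than in control. NR1H3, the oxysterol receptor LXR alpha, read 73.5, 65.2, 68.1 and 89.3. Of the early enzymes, MVK, which phosphorylates mevalonate, read 378, 298, 384 and 305, lower on both arrays with Sonazoid by 1.27-fold and 1.26-fold than on their counterparts, although its other probe sets differed by log2 0.06 to 0.18 for Sonazoid only against control. FDPS, which makes farnesyl diphosphate, read 5430, 5365, 4713 and 4739 and was lower on both arrays with ultrasound, by 1.15-fold and 1.13-fold. ACAT2, which makes acetoacetyl-CoA, read 3387, 3098, 3579 and 3064. After squalene, SC5D, a sterol desaturase, read 574, 727, 615 and 674, and TM7SF2, a sterol reductase, lay under the floor on both arrays with ultrasound and at 31.2 in control and 39.9 with Sonazoid only, which makes it at least 1.31-fold lower than control. The other probe set of SC5D, near the floor, differed from control by log2 -0.11 with Sonazoid only and by -0.11 with ultrasound only. Both of these arrays were set to the floor, so each value is a bound and the difference may be larger.

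Among the carriers and stores, STARD3, which moves cholesterol at late endosomes, read 195, 138, 197 and 160 and was lower on both arrays with Sonazoid, 1.41-fold and 1.23-fold. SOAT1, which esterifies cholesterol for storage, read 306, 322, 387 and 391, higher on both arrays with ultrasound by 1.27-fold and 1.21-fold, but its other probe sets differed by log2 -0.34 to -0.17 after ultrasound only. NCEH1, which releases cholesterol from its esters, read 113, 104, 111 and 145. The lipoprotein receptors VLDLR and SCARB1, named outside the rule and after their values were seen, read 341, 356, 430 and 436, and 896, 870, 907 and 776. Other probe sets of SCARB1 differed from it, by log2 -0.21 to 1.40 for the combination, 0.17 to 1.14 for ultrasound only and -0.08 to 1.14 for Sonazoid only against control. Efflux genes were near the floor: APOE read 43.4, 33.5, 58.4 and 43.9, ABCG1 24.9, 26.4, 21.7 and 32.5, and ABCA1 passed the floor in the combination alone, at 26.3. Of the SREBP1 targets, the fatty acid synthase FASN read 761, 553, 703 and 532, lower on both arrays with Sonazoid by 1.38-fold and 1.32-fold, the desaturase FADS2 read 391, 492, 555 and 447, and the elongase ELOVL6 passed the floor with Sonazoid only, at 33.0. The other probe set of FADS2 differed from control by log2 -0.25 with Sonazoid only and by 0.08 with ultrasound only. By 1.2-fold or more, 4 of 35 pathway genes were lower with Sonazoid in both pairs: MVK, STARD3, APOE and FASN. For all genes this share was 4.29%. With the values as deposited 0 of 36 pathway genes were, and 1.93% of all genes.

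On scaled signals SREBF1 had the widest range of the 8 genes over the 4 arrays, 0.84 on the log2 scale, against 0.78 for MVD; with the values as deposited MVD had the widest, 0.99 against 0.63. By the scaled range, the genes most like SREBF1 were sought among 10627 others above the floor on all arrays, by the Euclidean distance between log2 values centred on each gene's mean. The nearest were LRP3 at a distance of 0.05, GALNT10 at 0.05, KCTD1 at 0.07, TLCD1 at 0.07 and FITM2 at 0.09. LRP3 read 368 in untreated cells, 348 after Sonazoid, 424 after ultrasound and 229 after both, and GALNT10 read 139, 127, 155 and 90.8. With 4 arrays a close match can arise in many genes. Of the other members SREBF2 was the closest, at a distance of 0.46 and rank 1020, and MVD the farthest, at 1.17 and rank 10257.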

How the data were processed

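Total RNA of U937 cells was measured on 4 arrays, 1 per group, and groups follow the agent label of each sample. The file deposited by the authors holds a linear intensity for every probe set on every array; per the labels' protocols, RNA was treated with DNase and labelled with the manufacturer's 1-cycle kit, and how the authors summarised and scaled the probes is not stated in the sources used. Each array was multiplied by 1 factor (0.923 to 1.07) to a common trimmed mean, with 2% of values removed at each end, since trimmed means differed 1.16-fold. Symbols came from the platform annotation, updated for 41043 probe sets through Entrez identifiers with RefSeq (GRCh38.p14); probe sets with several symbols or none and 62 control probe sets were left out. A gene is measured in a comparison if it passes the floor on either array. Genes named were all members, in each sub-list of the pathway the 3 measured genes farthest from 0 in any comparison, and the 5 genes most like the member with the widest range. The members and lists were chosen with earlier results of these data known. The counting was tested on simulated data with large changes in bright probe sets alone, which says nothing on small differences or dim signals. The number of arrays limits the precision. Python 3.11.15, numpy 2.4.6 and pandas 2.3.3 were used. The limit of 1.2-fold was added after the members' values were seen. Alternatives were the values as deposited, quantile normalisation, no floor (minimum of 1), a floor of 100, and the mean of probe sets or the gene-specific ones for a gene.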

Additional observations from a re-analysis of the deposited data

Results flagged for a closer look

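4 probe sets above the floor on all arrays differed in opposite directions, by at least 1.1-fold each way, when an agent was given alone and together with the other agent. They are 4 of 19 member probe sets, where 20.7% of 19648 probe sets above the floor on all arrays did; each rests on single arrays and the difference was not tested. For ultrasound these were 202308_at of SREBF1, at log2 0.19 for ultrasound only against control and -0.53 for the combination against Sonazoid only, 221750_at of HMGCS1, at 0.23 and -0.20, and 203027_s_at of MVD, at -0.34 and 0.29. For Sonazoid it was 213577_at of SQLE, at 0.14 for Sonazoid only against control and -0.21 for the combination against ultrasound only; the last value was 0.0048 with the values as deposited, and that of HMGCS1 for the combination against Sonazoid only was -0.11, under 1.1-fold. As deposited 4 probe sets met the limits too, 202308_at, 203027_s_at and, for IDI1, 233014_at and 242065_x_at. The other HMGCS1 probe set did not share the sign for ultrasound only, at -0.47.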

How the results depend on the processing

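No paired analysis was possible because each group holds 1 array. With 1 array per group no replicate could be left out, and dim signals limit MVD, 242748_at of SREBF2 and HSD17B7. Quantile normalisation moved none of the medians, 2-fold counts and shares of all genes by more than 0.1 (log2), 1.5 times or the 95% binomial interval; of the 1.2-fold counts, member probe sets higher in the combination than with Sonazoid only went from 1 to 0. Of 95 probe set differences of the members 16 changed sign with the values as deposited and 2 under quantile normalisation, all under 1.2-fold. A slightly higher limit than 1.2-fold was tried first, also after the values were seen; under it the combination against Sonazoid only counted SREBF1 alone, without MVD and SREBF2, and the other 4 comparisons gave equal counts of member genes. With the values as deposited the count of member probe sets 2-fold lower in the combination went from 1 to 0 against control, the members' median became 0.24 there and 0.15 in the combination against ultrasound only, and the pathway medians 0.19 and 0.20. The mean of probe sets gave members' medians of -0.079 for ultrasound only and 0.049 for the combination against ultrasound only. With the floor of 100, 0 member probe sets were 2-fold lower for the combination against control, 0 for ultrasound only and 0 in the combination against Sonazoid only. With no floor 2 were lower for ultrasound only and 1 higher in the combination against ultrasound only, the added ones under the floor. Pathway genes at 2-fold numbered 2, 3, 2 and 2 with no floor for the combination, ultrasound only and Sonazoid only against control and the combination against ultrasound only; they numbered 0 with the floor of 100 and 0 with gene-specific probe sets, for the combination and for Sonazoid only against control. The share of all genes at 2-fold either way was 2.26% in the combination against control, and 2.85% as deposited, 22.9% with no floor, 0.710% with the floor of 100 and 1.18% with the mean of probe sets. For ultrasound only these were 2.37%, 2.11%, 23.1%, 0.640% and 1.24%. For Sonazoid only the share was 1.37%, and 22.2% with no floor, 0.0694% with the floor of 100, 0.664% with the mean and 1.59% with gene-specific probe sets. For the combination against ultrasound only it was 1.86%, and 2.31%, 22.7%, 0.0569%, 0.943% and, gene-specific, 2.18%; against Sonazoid only 2.17%, and 2.44%, 23.0%, 0.550% and 1.15%. The part of the 2-fold calls that were higher went from 61.4% to 80.5% with the values as deposited in the combination against control, from 47.7% to 63.0% for Sonazoid only and from 37.7% to 72.2% in the combination against ultrasound only.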
